A study of Mus musculus with 40 samples.

Results

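Interleukin 1, tumour necrosis factor, interleukin 6 and the inflammasome were followed here through 10 genes of the mouse cortex, *Il1a*, *Il1b*, *Il1rn*, *Il1r1*, *Il18*, *Casp1*, *Nlrp3*, *Pycard*, *Tnf* and *Il6*. They were chosen by symbol from the 43346 genes of the count table, each matched 1 row, and all 10 were among the 21253 genes that reached 10 counts in 4 or more of the 40 libraries. The mice carried *Trem2* H157Y, a missense change of the microglial receptor TREM2 made by CRISPR/Cas9, and the homozygous mice (Hom) were compared to WT littermates. In the amyloid cohort, collected at 8.5 months, every mouse of both genotypes was also hemizygous for 5xFAD, neuron-driven human transgenes with familial Alzheimer's disease mutations that cause amyloid deposition. The non-amyloid cohort carried no such transgenes and was collected at 6 months, so age and transgenes cannot be told apart between cohorts. Each of the 4 groups held 10 mice, 5 females and 5 males, and the knock-in mice descended from 1 founder. Polyadenylated RNA of whole cortex was sequenced, so fewer cells of a type and less RNA per cell cannot be told apart in any value below.

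The IL-1 ligands IL-1α and IL-1β signal through the receptor IL1R1, and the antagonist encoded by *Il1rn* occupies that receptor without signalling. IL-1β and IL-18 are made as inactive precursors, which caspase-1 cleaves once the sensor NLRP3 and the adaptor ASC, the product of *Pycard*, have assembled an inflammasome. TNF and IL-6 are cytokines with receptors of their own, and in the brain microglia are a main source of IL-1β, TNF and inflammasome parts. Part of the regulation of this pathway is on the protein, by cleavage and release, which RNA counts do not measure.

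The stretches before the start sites of *Il1a*, *Il1b*, *Tnf* and *Nlrp3* are shown, 4 genes that were all called between the cohorts in WT mice. Each is the 250 bases before a RefSeq start (GRCm38.p6), on the gene's own strand. Capitals mark 1 of 3 motifs, each searched on both strands. These were TATAAA, the core of a TATA box, the κB consensus of NF-κB, and the AP-1 type site TGANTCA. The windows are chr2:129309973-129310222, minus strand, for *Il1a*, chr2:129371140-129371389, minus strand, for *Il1b*, chr17:35202008-35202257, minus strand, for *Tnf*, and chr11:59541319-59541568, plus strand, for *Nlrp3*.
Il1a: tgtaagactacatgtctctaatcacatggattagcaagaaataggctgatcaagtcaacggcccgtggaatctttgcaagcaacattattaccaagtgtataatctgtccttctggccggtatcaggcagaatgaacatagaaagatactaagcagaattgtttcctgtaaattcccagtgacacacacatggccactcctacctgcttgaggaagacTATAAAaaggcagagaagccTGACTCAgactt
Il1b: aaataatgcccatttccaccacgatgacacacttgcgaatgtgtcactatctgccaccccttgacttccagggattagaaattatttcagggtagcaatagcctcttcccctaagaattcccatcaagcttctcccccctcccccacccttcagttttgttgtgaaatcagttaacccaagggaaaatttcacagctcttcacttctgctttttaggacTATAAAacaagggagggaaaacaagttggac
Tnf: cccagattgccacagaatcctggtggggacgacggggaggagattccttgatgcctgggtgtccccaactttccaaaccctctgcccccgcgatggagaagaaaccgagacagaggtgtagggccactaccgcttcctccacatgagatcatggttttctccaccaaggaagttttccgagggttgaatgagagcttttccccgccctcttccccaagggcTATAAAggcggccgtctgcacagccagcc
Nlrp3: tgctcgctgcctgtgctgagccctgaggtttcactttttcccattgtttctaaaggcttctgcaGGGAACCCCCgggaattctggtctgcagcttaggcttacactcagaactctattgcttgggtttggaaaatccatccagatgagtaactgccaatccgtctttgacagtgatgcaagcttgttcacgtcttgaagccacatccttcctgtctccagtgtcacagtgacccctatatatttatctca

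*Il1a*, *Il1b* and *Tnf* hold TATAAA 32, 31 and 29 bases before their starts, and the *Il1a* window also holds TGANTCA 12 bases before the start. The *Nlrp3* window shown holds neither, and has the κB consensus 186 bases before the start. The other RefSeq window of *Nlrp3*, chr11:59542436-59542685, holds none of the 3 motifs. RefSeq gave 14 windows for the 10 genes, some with several starts. TATAAA was present for 4 of the 10 genes, and in 12.4% of all 32851 windows of this length. The fourth gene was *Il18*, with the match 175 bases before its start and on the opposite strand. TGANTCA was present for *Il1a*, *Il1rn* and *Il6* (6.75% of all windows), and the κB consensus for *Il1r1*, *Nlrp3* and *Il6* (7.25% of all windows). The shares count windows and not genes, and a gene with several starts had several chances to hold a motif. The matches describe letters in these windows. *Il1a* and *Il1b* lie on the minus strand of chromosome 2, 54597 bases apart. *Tnf* is on chromosome 17, as is *Trem2*, 13144 kb away.

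Libraries held 41646271 to 105903846 counts on genes. Hom library 19 of the amyloid cohort, from a female, stood apart, with 0.660% of its counts on genes of the antisense class against 0.0857% to 0.107% in the other 39 libraries. It was also the shallowest, and held 0 counts of *Tnf* and 0 of *Il1rn*. Some results, but not all, are also given without it. The study excluded an amyloid Hom female, which it does not name, for few reads counted on genes and for its strand check. Library 19 may be that one, so the tests here, which keep it unless stated, may include a library the study rejected. *Thy1* and *App*, which share sequence with the transgenes, were called higher in amyloid than in non-amyloid WT mice (log2 fold changes 1.64 ± 0.10 SE and 0.27 ± 0.05). Levels are given as CPM, a gene's counts relative to the library's total after TMM scaling. *Trem2* was 10.7 ± 2.13 CPM (mean ± SD) in non-amyloid WT, 10.4 ± 1.59 in non-amyloid Hom, 62.2 ± 24.4 in amyloid WT and 33.9 ± 10.3 in amyloid Hom mice. The counts do not separate the 2 *Trem2* alleles.

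Compared by length, as CPM per kb of the exonic length given in the table, *Il18* stood far above the other genes in every group, at 24.5 ± 3.55 (SD, n = 10) in non-amyloid WT and 25.3 ± 3.52 in amyloid WT mice. *Casp1* followed at 2.73 ± 0.544 and 3.57 ± 0.759, and *Pycard* at 1.24 ± 0.167 and 3.48 ± 1.16. *Casp1* and *Pycard* therefore stood within their spread of each other in amyloid WT mice, while in non-amyloid WT mice they did not. *Il1r1* was next (0.782 ± 0.149 and 1.14 ± 0.247), followed by *Il1a* (0.430 ± 0.113 and 0.980 ± 0.1997). *Il1r1* and *Il1a* lay within their spread of each other in amyloid WT mice. *Nlrp3* was at 0.254 ± 0.0647 and 0.631 ± 0.202 and *Il1b* at 0.199 ± 0.0666 and 0.441 ± 0.126, neighbours that lay within their spread in both groups. The lowest 3 were *Il6* (0.121 ± 0.0455 and 0.150 ± 0.0517), *Tnf* (0.0260 ± 0.0233 and 0.0811 ± 0.0602) and *Il1rn* (0.00442 ± 0.00558 and 0.0454 ± 0.0282). In amyloid WT mice each of these 3 lay within the spread of its neighbour. The order of the 10 genes was the same in all 4 groups. The table's exonic models of *Il18*, *Pycard* and *Il6* differ from those of GENCODE vM21, which bears on their values per length and not on comparisons between groups.

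**Figure D1:**
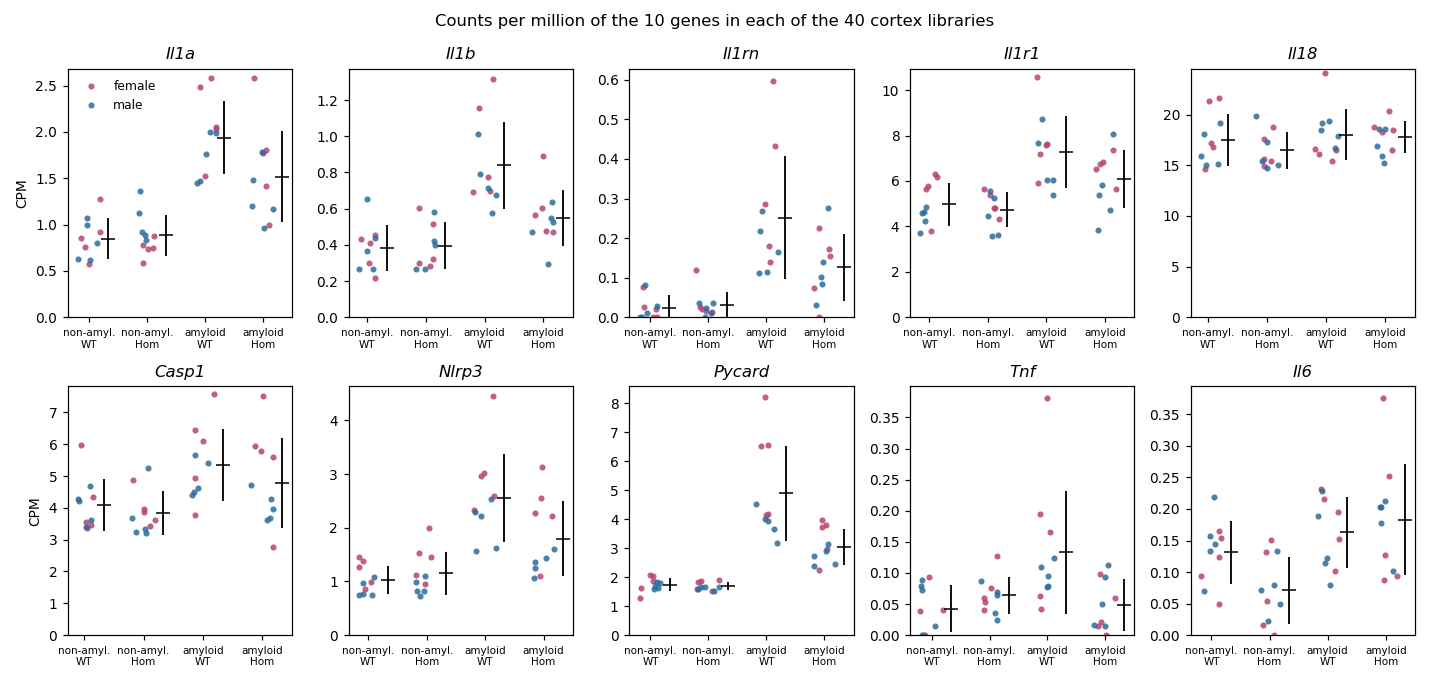
CPM (vertical axis from 0, a scale per gene) in each cortex library by group, with 1 point a mouse coloured by sex and the mean ± SD of 10 mice beside the points. All 10 amyloid WT points of *Il1a*, *Il1rn*, *Nlrp3* and *Pycard* lie above every non-amyloid WT point, and *Il18* covers the same range in the 4 groups. How many of all genes separate in this way was not counted.

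Between cohorts in WT mice, 7 of the 10 genes were called, and all 7 were higher in the amyloid cohort. A gene was called where edgeR gave an adjusted p below 0.05 with a log2 fold change beyond 0.25 in either direction. Of all genes tested, 7.95% were called in this comparison and 6.62% were called higher. The 7 were *Il1a*, *Il1b*, *Il1rn*, *Il1r1*, *Nlrp3*, *Pycard* and *Tnf*, and the median log2 fold change of the 10 genes was 1.17, beside 0.00 over all genes. In Hom mice 5 of the 10 were called, all higher in the amyloid cohort, where 6.56% of all genes were called and 5.71% were called higher. These were *Il1a*, *Il1rn*, *Nlrp3*, *Pycard* and *Il6*, and the median of the 10 was 0.56, beside 0.03 over all genes. Between Hom and WT mice of the amyloid cohort, 0 of the 10 were called by edgeR (0.0753% of all genes), while 6 of the 10 had an unadjusted p under 0.05, all 6 lower in Hom mice. Of all genes, 9.67% had such a p and 5.77% were also lower. *Tnf* is among the 7 and the 6, although it passed the filter on low counts only through the amyloid WT libraries. DESeq2 called 1 of the 10, *Pycard*, and 300 of all 21253 genes. In the non-amyloid cohort 0 of the 10 were called between genotypes (0.0329% of all genes), and 1, *Il6*, had an unadjusted p under 0.05 (4.61% of all genes) with a lower value in Hom mice (2.29%). The 2 comparisons between cohorts and the 2 between genotypes share groups with each other, so their values are set side by side and not counted as separate evidence.

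**Figure D2:**
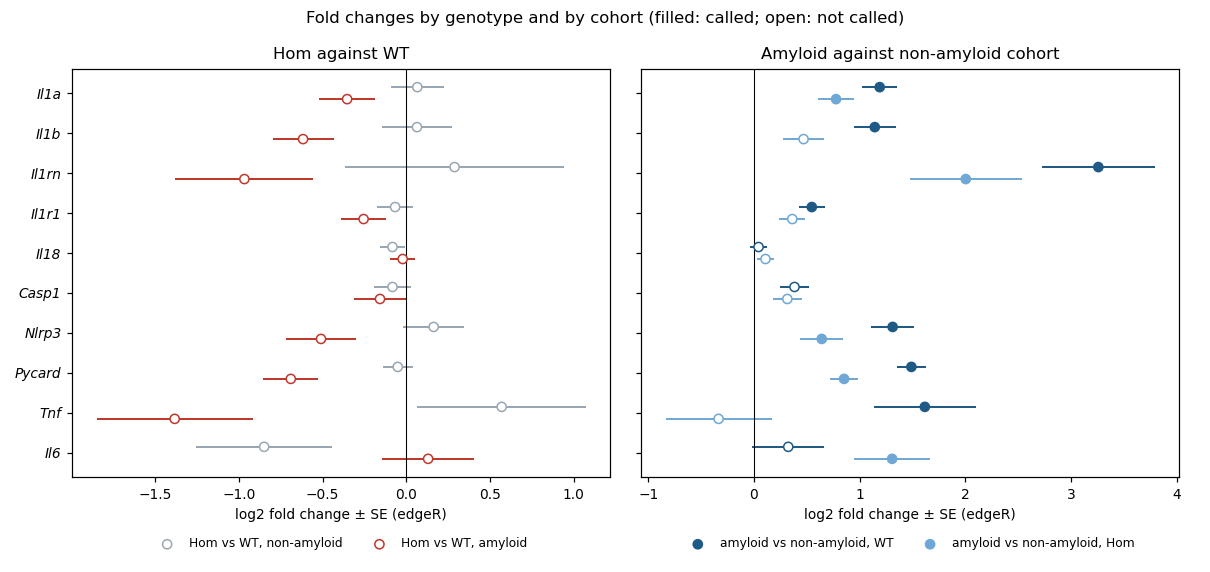
Log2 fold changes ± SE from edgeR (horizontal axes) of the 10 genes, Hom against WT on the left and the amyloid against the non-amyloid cohort on the right, filled where called. The amyloid genotype points of *Pycard*, *Il1b*, *Il1rn* and *Tnf* lie left of 0 and are open, and the cohort points of *Pycard* are filled in both genotypes.

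Both IL-1 ligands were called higher with amyloid in WT mice, and in Hom mice *Il1a* was and *Il1b* was not. *Il1a*, which encodes IL-1α, ranged from 0.575 to 1.28 CPM in non-amyloid WT mice (median 0.828), from 0.581 to 1.36 in non-amyloid Hom (0.853), from 1.45 to 2.58 in amyloid WT (1.995) and from 0.965 to 2.58 in amyloid Hom mice (1.45). The 2 WT groups did not overlap, and 6 of 10 amyloid Hom mice lay above every non-amyloid Hom mouse. The share of all genes whose groups separate in this way, here and below, was not counted. The log2 fold change between cohorts was 1.19 ± 0.17 (SE, adjusted p 6.10e-07) in WT and 0.78 ± 0.17 (adjusted p 0.00157) in Hom mice. Within the amyloid cohort 9 of 10 Hom mice lay below the WT median, and the log2 fold change of *Il1a* was -0.35 ± 0.17 (p 0.0460, adjusted p 0.505), which did not pass the threshold.

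*Il1b*, which encodes IL-1β, ranged from 0.216 to 0.652 CPM in non-amyloid WT mice (median 0.389), from 0.265 to 0.606 in non-amyloid Hom (0.362), from 0.578 to 1.32 in amyloid WT (0.744) and from 0.292 to 0.889 in amyloid Hom mice (0.538). Of the amyloid WT mice, 9 of 10 lay above every non-amyloid WT mouse, while 2 of 10 amyloid Hom mice lay above every non-amyloid Hom mouse. *Il1b* was called between cohorts in WT mice (log2 fold change 1.14 ± 0.20, adjusted p 2.99e-05) and not in Hom mice (0.47 ± 0.20, adjusted p 0.143). Between genotypes in the amyloid cohort 7 of 10 Hom mice lay below every WT mouse, and 3 WT mice lay above every Hom mouse. The log2 fold change of *Il1b* was -0.62 ± 0.18 (p 0.00266, adjusted p 0.135), which missed the threshold, and -0.59 ± 0.19 (adjusted p 0.220) without library 19. In the non-amyloid cohort the genotypes differed by 0.06 ± 0.21, and the difference between the 2 genotype effects was -0.67 ± 0.28 (p 0.0197, adjusted p 0.424).

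*Il1rn*, the receptor antagonist, was the most sparsely counted of the IL-1 genes, with 0 to 6 counts in non-amyloid WT, 0 to 10 in non-amyloid Hom, 7 to 44 in amyloid WT and 0 to 19 in amyloid Hom libraries. It was at 0 counts in 4, 1, 0 and 1 libraries of these groups. In CPM it averaged 0.0245 ± 0.0309 (SD), 0.0301 ± 0.0335, 0.251 ± 0.156 and 0.126 ± 0.0852, and the 2 WT groups did not overlap. It was called between cohorts in WT (log2 fold change 3.26 ± 0.53, adjusted p 1.34e-05) and in Hom mice (2.0 ± 0.53, adjusted p 0.0122). *Il1rn* reached 10 counts in 0, 1, 8 and 4 libraries of the 4 groups, so it passed the filter on low counts mainly through the amyloid libraries. Its lower levels elsewhere are therefore partly a condition of its being tested. Between genotypes in the amyloid cohort the log2 fold change was -0.97 ± 0.41 (p 0.0284, adjusted p 0.424), and 5 Hom mice lay below every WT mouse.

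The antagonist and the ligands were also set against each other within each mouse, as log2 ratios of CPM with 0.05 added to both, in 6 tests by two-sided permutation. The log2 ratio of *Il1rn* to *Il1b* was -1.67 ± 0.659 (SD) in amyloid WT and -2.57 ± 0.579 in non-amyloid WT mice, a difference of 0.905 (permutation p 0.00462, adjusted p 0.0277 over the 6 tests). With 0.2 CPM added in place of 0.05 this difference was 0.112 (permutation p 0.526), so it depends on how *Il1rn* near 0 is treated. Between Hom and WT mice the ratio differed by -0.236 in the amyloid cohort (permutation p 0.494) and by 0.0660 in the non-amyloid cohort (permutation p 0.816). The log2 ratio of *Il1a* to *Il1b* was 1.17 ± 0.355 in amyloid WT, 1.37 ± 0.400 in amyloid Hom, 1.08 ± 0.477 in non-amyloid WT and 1.09 ± 0.457 in non-amyloid Hom mice. Its differences were 0.20 between genotypes with amyloid, 0.00868 without, and 0.0952 between WT cohorts (permutation p 0.25, 0.966 and 0.609).

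*Il1r1*, the signalling receptor of both ligands, ranged from 3.73 to 6.32 CPM in non-amyloid WT mice (median 4.75), from 3.56 to 5.67 in non-amyloid Hom (4.80), from 5.37 to 10.6 in amyloid WT (7.39) and from 3.83 to 8.07 in amyloid Hom mice (6.18). The groups overlapped, and 6 of 10 amyloid WT mice exceeded every non-amyloid WT mouse. It was called between cohorts in WT mice (log2 fold change 0.55 ± 0.12, adjusted p 0.00177) and missed the threshold in Hom mice (0.36 ± 0.12, adjusted p 0.0656). In Hom mice it was called when any 1 of 5 libraries was left out (non-amyloid Hom 4 or 6, amyloid WT 5, amyloid Hom 10 or 25, adjusted p from 0.0208 to 0.0494), and with sex as a covariate (adjusted p 0.0466). Between genotypes with amyloid the value was -0.25 ± 0.13 (adjusted p 0.552).

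*Il18*, the other caspase-1 substrate among these cytokines, covered one range in all 4 groups, from 14.6 to 24.1 CPM over the 40 mice. Its group means were 17.5 ± 2.54 (SD), 16.5 ± 1.80, 18.04 ± 2.52 and 17.8 ± 1.58 CPM, in the order non-amyloid WT, non-amyloid Hom, amyloid WT and amyloid Hom. The log2 fold change between WT cohorts was 0.04 ± 0.08 (adjusted p 0.834), the smallest of the 10 genes, and the genotype values were -0.02 ± 0.07 with and -0.08 ± 0.07 without amyloid.

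Of the inflammasome parts, *Pycard* had the lowest p between WT cohorts and was the one gene of the 10 whose cohorts did not overlap in either genotype. It ranged from 1.28 to 2.09 CPM in non-amyloid WT mice (median 1.76), from 1.51 to 1.89 in non-amyloid Hom (1.66), from 3.18 to 8.23 in amyloid WT (4.15) and from 2.25 to 3.98 in amyloid Hom mice (2.93). No amyloid mouse of either genotype overlapped a non-amyloid mouse, as was also the case for *Trem2* and *Thy1*. The log2 fold change between cohorts was 1.49 ± 0.13 (adjusted p 1.57e-11) in WT and 0.85 ± 0.13 (adjusted p 1.61e-05) in Hom mice. With amyloid, all 10 Hom mice lay below the WT median, 7 of them below every WT mouse, and 7 WT mice lay above every Hom mouse. The log2 fold change between genotypes was -0.69 ± 0.16 (p 0.000363, adjusted p 0.0763). This missed the threshold in edgeR without covariates, and *Pycard* was called lower with sex as a covariate (adjusted p 0.0131), by DESeq2 (0.00645) and in 1 fit of all 40 libraries (0.00165). These settings called 251, 300 and 612 of all genes, against 16 in edgeR without covariates. *Pycard* was also called when WT library 13 was left out (adjusted p 0.0295), and without library 19 it was -0.68 ± 0.17 (adjusted p 0.110). Over all alternatives other than leaving out 1 library the adjusted p ran from 0.000542 to 1. In the non-amyloid cohort *Pycard* was -0.05 ± 0.09, and the difference between the 2 genotype effects was -0.64 ± 0.19 (p 0.00151, adjusted p 0.173).

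*Nlrp3*, the sensor, ranged from 0.751 to 1.45 CPM in non-amyloid WT mice (median 0.981), from 0.721 to 2.0 in non-amyloid Hom (1.04), from 1.56 to 4.45 in amyloid WT (2.43) and from 1.06 to 3.13 in amyloid Hom mice (1.52). The WT groups did not overlap, and 4 of 10 amyloid Hom mice lay above every non-amyloid Hom mouse. It was called between cohorts in WT (log2 fold change 1.31 ± 0.20, adjusted p 4.65e-06) and in Hom mice (0.64 ± 0.20, adjusted p 0.0417). The call in Hom mice was lost without any of 11 single libraries, namely non-amyloid Hom 2, 4, 11, 14, 21, 23 and 35 and amyloid Hom 3, 16, 33 and 34, with adjusted p from 0.0560 to 0.109. Between genotypes with amyloid the log2 fold change was -0.51 ± 0.21 (p 0.0245, adjusted p 0.399). It was called in 1 setting, the fit of all 40 libraries with sex as a covariate (-0.53 ± 0.15, adjusted p 0.0426), where 527 of all genes were called. *Casp1*, the protease, averaged 4.09 ± 0.815 (SD), 3.85 ± 0.690, 5.34 ± 1.14 and 4.79 ± 1.42 CPM in the same order of groups, and these ranges overlapped. Its log2 fold change was 0.38 ± 0.14 between WT cohorts (adjusted p 0.0780), 0.32 ± 0.14 between Hom cohorts (0.168) and -0.16 ± 0.16 between genotypes with amyloid (0.725). It was called between WT cohorts by limma-voom (adjusted p 0.0127), and without amyloid WT library 12 (0.0497) or non-amyloid WT library 15 (0.0252).

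*Tnf*, which encodes TNF, was counted 0 to 8 times in non-amyloid WT, 2 to 9 times in non-amyloid Hom, 3 to 28 times in amyloid WT and 0 to 9 times in amyloid Hom libraries. Its means were 0.0426 ± 0.0382 (SD), 0.0638 ± 0.0295, 0.133 ± 0.0987 and 0.0482 ± 0.0414 CPM. It reached 10 counts in 5 amyloid WT libraries and in no other, so it passed the filter on low counts through that group alone and had to be higher there. The log2 fold changes were 1.62 ± 0.48 between WT cohorts (adjusted p 0.0239), -0.33 ± 0.50 between Hom cohorts (0.719) and -1.38 ± 0.47 between genotypes with amyloid (p 0.00708, adjusted p 0.226). Amyloid WT library 32, at 0.381 CPM, was the highest of all 40, and without it the call between WT cohorts was lost (1.27, adjusted p 0.0893). The call was also lost with no filter on low counts (adjusted p 0.0617) and in a fit of the 20 libraries compared (0.0558). The difference between the 2 genotype effects was -1.95 ± 0.70 (p 0.00786, adjusted p 0.329).

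*Il6*, which encodes IL-6, had 4 to 16 counts in non-amyloid WT, 0 to 14 in non-amyloid Hom, 5 to 21 in amyloid WT and 6 to 17 in amyloid Hom libraries. Its means were 0.131 ± 0.0494 (SD), 0.0709 ± 0.0529, 0.163 ± 0.0562 and 0.183 ± 0.0886 CPM. It was called between Hom cohorts (log2 fold change 1.31 ± 0.36, adjusted p 0.0155) and not between WT cohorts (0.32 ± 0.34, adjusted p 0.670). The non-amyloid Hom mice were the lowest of the 4 groups, and 4 of them lay below every non-amyloid WT mouse (log2 fold change -0.85 ± 0.41, p 0.0489, adjusted p 0.965). Between genotypes with amyloid *Il6* was 0.13 ± 0.28 (adjusted p 0.869). Without library 19, which held the highest *Il6* value of its group (0.3755 CPM), it was -0.027. The difference between the 2 genotype effects was 0.98 ± 0.49 (p 0.0519, adjusted p 0.481). The call between Hom cohorts held with each library left out, library 19 among them (adjusted p up to 0.0453). In a fit of the 20 Hom libraries alone it was lost (adjusted p 0.0664).

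Tested as the difference between the genotype effects of the 2 cohorts, 0 of the 10 genes and 0 of all genes (0%) were called by edgeR. An unadjusted p under 0.05 was found for 4 of the 10, *Il1b*, *Nlrp3*, *Pycard* and *Tnf*, all with a lower value in the amyloid cohort, and for 10.3% of all genes (5.54% lower). *Tnf* passed the filter on low counts only through amyloid WT libraries, which by itself lowers its value here. DESeq2 called 27 of all genes in this comparison and 0 of the 10. No gene of the 10 therefore passed the threshold for a genotype effect that differed between the cohorts.

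The wider pathway was described through 109 further genes of the IL-1, inflammasome, TNF, IL-6 and NF-κB pathways, of which 102 were tested. Between WT cohorts 40 of these 102 were called, all 40 higher with amyloid, where 6.62% of all genes were called higher. The list was chosen with earlier results of these data known, which bears on every share of it given here and below. Sparse genes that are high with amyloid also pass the filter on low counts more readily. The 40 cannot be read apart from these 2 choices. The median log2 fold change of the 102 was 0.19, beside 0.00 over all genes. The 10 with the lowest p included the inflammasome sensors *Naip2*, *Naip5* and *Naip6*, near-identical receptors of bacterial proteins among which reads can be misassigned. Their log2 fold changes were 2.03 ± 0.17, 1.75 ± 0.15 and 1.72 ± 0.16. The other 7 were the oncostatin M receptor *Osmr* (1.71 ± 0.16), the TNF receptor *Tnfrsf1a* (1.15 ± 0.11), *Tnfaip8l2* (1.49 ± 0.17), the transcription factor *Stat3* (0.55 ± 0.06), the NF-κB cofactor *Bcl3* (3.37 ± 0.41), the death receptor protease *Casp8* (0.84 ± 0.10) and the IL-36 receptor *Il1rl2* (1.11 ± 0.14). *Bcl3* averaged 0.0697 ± 0.0527 (SD) CPM in non-amyloid WT and 0.744 ± 0.538 in amyloid WT mice. Its highest non-amyloid WT library was at 0.2003 CPM and its lowest amyloid WT library at 0.246. It may thus have passed the filter on low counts mainly through amyloid libraries. Its higher value there would then be partly a condition of its being tested. *Gsdmd*, the pore former cleaved by caspase-1, was called as well, at 2.17 ± 0.362 and 3.72 ± 1.25 CPM (log2 fold change 0.78 ± 0.13, adjusted p 2.70e-05).

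By role, 7 of 11 tested inflammasome sensors were called higher with amyloid in WT mice, 7 of 15 of the adaptor, caspase, gasdermin and regulator list, 4 of 6 TNF receptors, 4 of 8 TNF ligands and processing genes and 7 of 15 of the IL-6 family. The counts were 4 of 7 for IL-1 ligands and inhibitors, 4 of 10 for IL-1 receptors, 2 of 11 for IL-1 signalling, 6 of 16 for TNF signalling and 2 of 13 for NF-κB genes, and differences between lists were not tested. Of all genes, 6.62% were called higher in this comparison. The sensors called include *Naip2*, *Naip5* and *Naip6*, among which reads can be misassigned. The lists also include *Tnf* and *Il1rn*, which passed the filter on low counts wholly or mainly through amyloid libraries. No gene of these 10 lists, which include the members, was called lower. Among receptors and inhibitors, the second TNF receptor *Tnfrsf1b* (0.91 ± 0.12), the IL-6 receptor *Il6ra* (0.74 ± 0.12), the IL-18 receptor chain *Il18rap* (1.97 ± 0.35) and the IL-18 binding protein *Il18bp* (0.45 ± 0.12) were called. The decoy receptor *Il1r2* (0.17 ± 0.25), the IL-1 co-receptor *Il1rap* (-0.09 ± 0.08) and *Il18r1* (1.59 ± 0.54, adjusted p 0.0535) were not, and *Il6st* had an adjusted p of 0.000133 at a log2 fold change of 0.23, under the fold threshold. *Il18rap* averaged 0.0865 ± 0.0685 (SD) CPM in non-amyloid WT and 0.346 ± 0.131 in amyloid WT mice. It too may have passed the filter on low counts mainly through amyloid libraries. In Hom mice 24 of the 102 were called between cohorts, all higher with amyloid, where 5.71% of all genes were called higher.

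**Figure D3:**
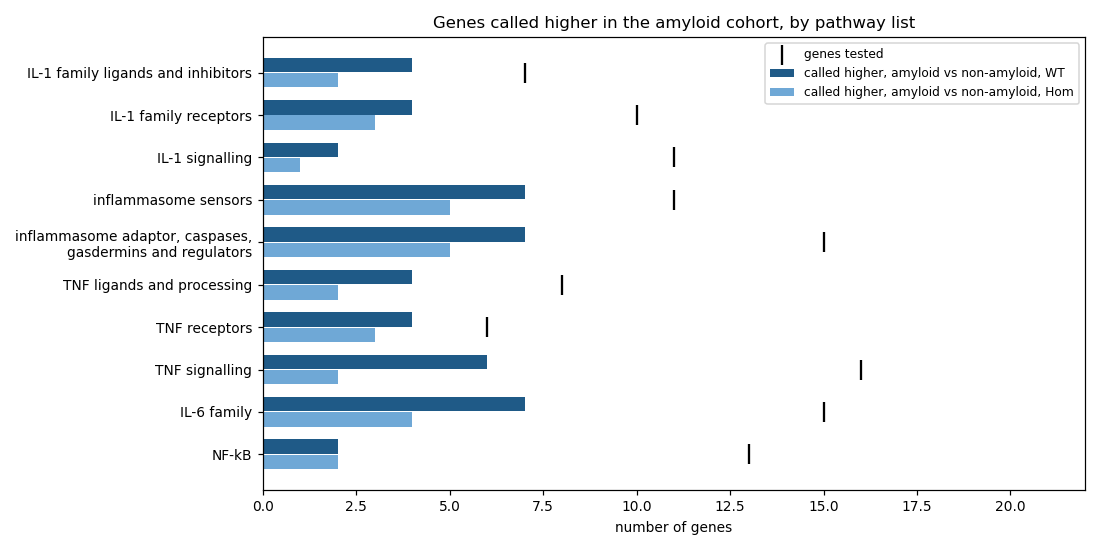
Number of genes called higher in the amyloid cohort (bars, horizontal axis) in WT and in Hom mice for the 10 pathway lists, with the number of genes tested as a black mark. The list of inflammasome sensors has 7 of 11 called in WT and 5 of 11 in Hom mice, where 6.62% and 5.71% of all genes were called higher.

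Between genotypes in the amyloid cohort 0 of the 102 further genes were called without a covariate, and 30 of them had an unadjusted p under 0.05 with lower values in Hom mice against 2 with higher values. Of all genes, 5.77% had such a p and lower values. Their median log2 fold change was -0.11, beside 0.00 over all genes. Once sex was a term of the fit, 7 were called, all lower in Hom mice, among 251 of the 21253 genes, 243 of them lower. The 7 were *Il1rl2* (-0.58 ± 0.13), *Tnfaip8l2* (-0.66 ± 0.16), *Tnfrsf1a* (-0.55 ± 0.13), *Naip2* (-0.70 ± 0.14), *Naip5* (-0.58 ± 0.13), *Naip6* (-0.73 ± 0.14) and *Osmr* (-0.68 ± 0.14). All 7 were also called higher with amyloid in WT mice, a comparison that shares the amyloid WT libraries. *Tnfrsf1a* averaged 13.6 ± 4.72 (SD) CPM in amyloid WT and 9.17 ± 0.741 in amyloid Hom mice. *Gsdmd* was at 3.72 ± 1.25 and 2.60 ± 0.466 CPM (log2 fold change -0.52 ± 0.16, adjusted p 0.172), which missed the threshold. In the non-amyloid cohort 0 of the 102 were called.

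**Figure D4:**
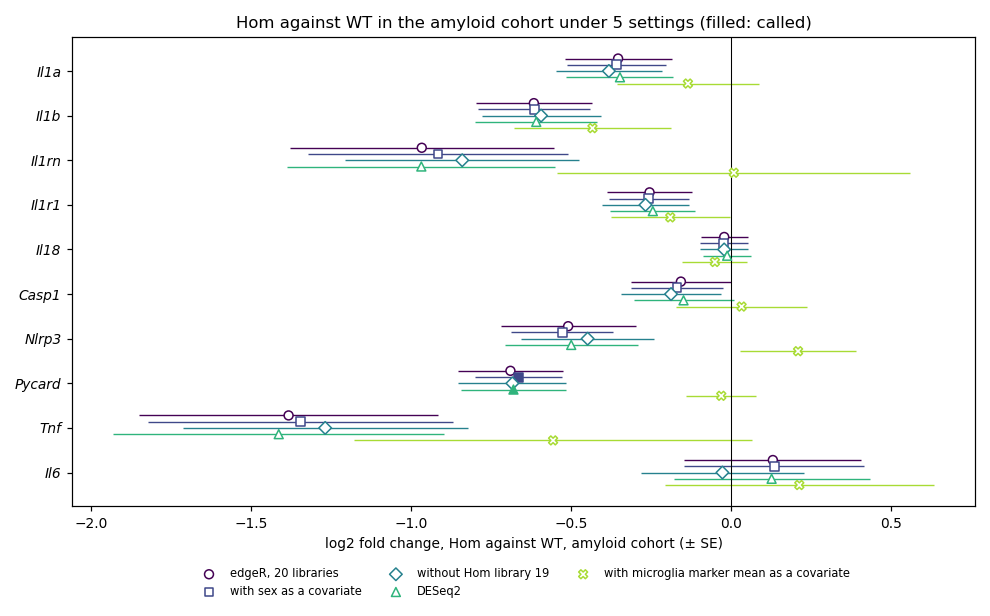
Log2 fold change ± SE of the 10 genes, Hom against WT in the amyloid cohort (horizontal axis), in edgeR without a covariate, with sex, without Hom library 19, by DESeq2, and with the mean of the microglia markers as a covariate, filled where called. *Pycard* is filled with sex as a covariate and by DESeq2, and its point with the microglia covariate is at -0.03.

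Like several of these genes, the microglia markers were higher with amyloid. The summed level of 15 markers was 434 to 604 CPM in non-amyloid WT, 478 to 571 in non-amyloid Hom, 903 to 2027 in amyloid WT and 688 to 1229 in amyloid Hom mice. Amyloid and non-amyloid mice did not overlap in it. Of the 15, all were called higher with amyloid in WT mice, 14 had an unadjusted p under 0.05 with lower values in Hom than in WT amyloid mice, and none was at 0 in any group. With the mean of these markers as a covariate, 0 of the 10 genes had an unadjusted p under 0.05 between genotypes with amyloid. Of all 21253 genes, 284 had such a p in that fit, against 2056 without the covariate. The 0 is therefore not particular to these genes. As 14 of the markers were themselves lower in Hom mice, genotype and marker level are only partly separable in that fit. With the covariate *Pycard* stood at -0.03 ± 0.11, *Il1rn* at 0.01 ± 0.55 and *Nlrp3* at 0.21 ± 0.18, while *Il1b* stood at -0.43 ± 0.25 and *Tnf* at -0.56 ± 0.62. The same covariate left 0 of the 10 called between cohorts in WT mice and 0 in Hom mice, where 15 and 148 of all genes were called. *Nlrp3* stood at -0.50 ± 0.33 and -0.44 ± 0.23. Since the markers separate the cohorts completely, the cohort and the marker level cannot be told apart in that fit.

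Over the 40 libraries, after the mean of each group was taken off log2 CPM, *Pycard* and *Nlrp3* had Pearson r of 0.821 and 0.711 with the mean of the microglia markers, and the other 8 genes lay between -0.150 and 0.349. The points share libraries, depth and sex, and for *Tnf*, *Il1rn* and *Il6* the counts are too sparse for a low r to be read. The genes most like *Pycard* in this way, out of 15161 genes with a mean of at least 1 CPM, were *Ctsz*, *Clic1* and *Gusb* (r of 0.860, 0.842 and 0.840). Among those most like *Nlrp3* were *Fcgr1* and *Siglech* (0.750 and 0.737). Those most like *Casp1* were *Nbn*, *Atg3* and *Krr1* (0.808, 0.774 and 0.772), and those most like *Il18* were *Zfp759*, *Zfp60* and *Srp19* (0.880, 0.871 and 0.869). The best r was 0.696 for *Il1a* (RP23-372I17.5), 0.673 for *Il1r1* (*Sgms1*), 0.713 for *Il1rn* (*Alox5ap*), 0.553 for *Il1b* (*Gm8186*), 0.523 for *Tnf* (*Ank*) and 0.620 for *Il6* (*Gm15477*). Among pairs of the 10 genes the highest r were 0.635 for *Il1a* with *Casp1*, 0.567 for *Il18* with *Casp1* and 0.548 for *Nlrp3* with *Pycard*, while *Il1b* and *Nlrp3* had 0.0111.

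**Figure D5:**
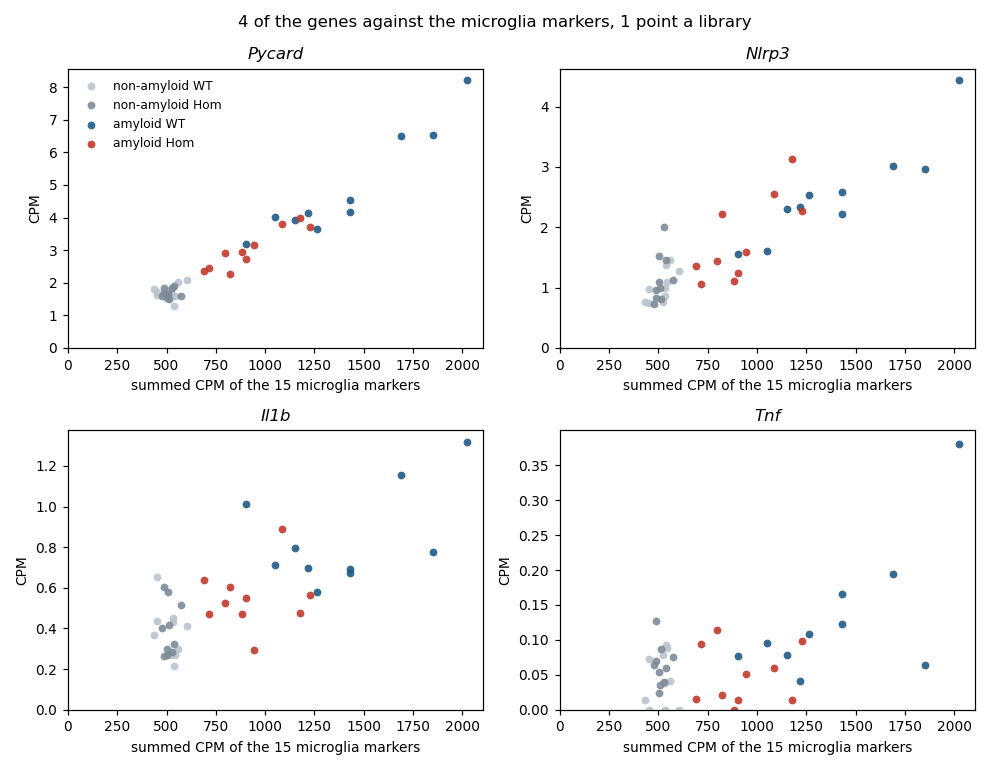
CPM of *Pycard*, *Nlrp3*, *Il1b* and *Tnf* (vertical axes) against the summed CPM of the 15 microglia markers (horizontal axes), with 1 point a library coloured by group. The *Pycard* points of both amyloid groups lie above those of both non-amyloid groups, and the amyloid Hom points lie between 688 and 1229 CPM of the markers.

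Monocytes, neutrophils and other immune cells are known to make these cytokines, and their markers were sparse. The 8 neutrophil markers summed to 0.114 to 2.20 CPM in 39 libraries and to 24.5 in non-amyloid WT library 24, where *Il1b* was at 0.432 CPM, inside its group. With that library in the WT group, all 4 tested neutrophil markers had an unadjusted p under 0.05 with lower values in Hom than in WT non-amyloid mice. The 4 monocyte markers summed to 0.586 to 2.68 CPM over all libraries and the 5 markers of border macrophages to 8.84 to 20.6 CPM. Of 4 tested T cell markers, 3 were called higher with amyloid in WT mice, at summed levels of 0.681 to 1.54 CPM against 0.220 to 0.801. Of all genes, 6.62% were called higher there. At these levels the T cell markers may have passed the filter on low counts mainly through amyloid libraries. Their higher values there would then be partly a condition of their being tested. No marker of these lists was at 0 in a whole group, and their part in the results was not tested. Choroid plexus markers, which show how much of that tissue was dissected with the cortex, ranged from 7.10 to 668 CPM within and across groups.

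*Nlrp3* was the gene of the 10 with the lowest p between females and males in both cohorts. In amyloid WT mice *Nlrp3* averaged 3.07 ± 0.818 (SD, n = 5) CPM in females and 2.05 ± 0.435 in males, and in amyloid Hom mice 2.25 ± 0.737 and 1.34 ± 0.203. In non-amyloid WT mice the means were 1.19 ± 0.252 and 0.865 ± 0.157, and in non-amyloid Hom mice 1.41 ± 0.404 and 0.889 ± 0.151. By edgeR, the log2 fold change of females against males was 0.67 ± 0.16 with amyloid (adjusted p 0.0789) and 0.56 ± 0.14 without (adjusted p 0.251), so that 0 of the 10 genes were called in either cohort, where 0.24% and 0.122% of all genes were. In a fit of both cohorts chosen after seeing these values, *Nlrp3* was called higher in females at 0.62 ± 0.11 (adjusted p 0.00101). With amyloid it was also called by DESeq2 (adjusted p 0.00725) and limma-voom (0.0268), and without library 19 (0.0195) or WT library 26 (0.0493). *Pycard* was 0.46 ± 0.13 higher in females with amyloid (p 0.00271, adjusted p 0.186) and 0.08 ± 0.09 without. With amyloid, 13 of the 15 microglia markers had an unadjusted p under 0.05 with higher values in females, 1 of them called, and their part in the *Nlrp3* values was not tested. The genotype effect did not pass the threshold for differing between sexes for any of the 10 genes by edgeR, where 0 of all genes (0%) were called, and 0 of the 10 and 5.29% of all genes had an unadjusted p under 0.05.

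For 3 of the genes, counts may include a neighbour on the opposite strand. *Il1a* shares 222 exonic bases with Gm14023, *Il1b* 25 with Il1bos and *Pycard* 485 with Gm45205, which are 11.2%, 1.31% and 12.8% of their exonic lengths in GENCODE vM21. Whether the counts used strand is not given in the sources used here.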

How the data were processed

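Cortical RNA of 40 mice was read from one table of counts per gene, whole numbers that the authors deposited without normalization, with group and sex from the study's labels and ages from its methods. The paper's methods name MAP-RSeq with TopHat and Bowtie, RSeQC and featureCounts on mm10, whereas the submitters' processing notes list STAR 2.5.2b, featureCounts 1.5.1 and edgeR. These differ, and the strand setting is not given in the sources used here. Libraries held 41646271 to 105903846 counts, and 9666 genes had none. No 2 libraries of a group were duplicates (lowest chi-square over its degrees of freedom in 180 pairs, 13.7). An amyloid Hom female that the study excluded is not identified there, so all 10 stayed in.

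Genes that reached 10 counts in 4 or more libraries were tested with edgeR 4.0.16 (TMM, quasi-likelihood F test, R 4.3.3), within a cohort (genotypes, sexes and genotype by sex) on 20 libraries and between cohorts or for genotype by cohort on 40, without covariates. Calls needed a Benjamini-Hochberg adjusted p under 0.05 over all 21253 genes and an absolute log2 fold change over 0.25. SE is the log2 fold change divided by the root of F. CPM uses TMM over 40 libraries. Ratios were compared with 100000 resamples, or all splits for 5 mice. Likeness used log2 CPM with a prior count of 2. Alternatives were DESeq2 1.42.0, limma-voom (limma 3.58.1), other normalizations, no filter, sex or microglia markers as covariates, other sets of libraries and each library left out. Added after seeing the data were 1 fit of 40 libraries with sex as a covariate for the genotypes and 1 fit of both cohorts for the sexes. The test was tried on simulated counts.

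The 10 genes, the pathway and marker lists and the rule for named genes were chosen with earlier results of these data known. The rule names the 10 genes, pathway genes called between genotypes without or with sex as a covariate, the 10 with the lowest p and 3 lower ones between WT cohorts (none was lower), 9 receptors or inhibitors, *Gsdmd*, the 3 genes most like each member (the text gives 3 for 3 members, 2 for *Nlrp3*, where another is not reported here, and the best for the other 6), and *Trem2*, *App* and *Thy1*. Promoter windows came from RefSeq.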

Additional observations from a re-analysis of the deposited data

Results flagged for a closer look

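Of 40 combinations of gene and group, 6 held a library set apart from the other 9 of its group, with a gap to the nearest one above 0.466 of the group's range. Chance alone flags about 1 in 20 where values are normally distributed. That was not checked for these CPM values, so 6 of 40 is not read as an excess. All 6 were the highest of their group. Amyloid WT replicate 32 was highest for both *Nlrp3* (4.45 CPM, the next 3.02) and *Tnf* (0.381 CPM from 28 counts, the next 0.195). The others were *Il1a* in amyloid Hom replicate 16 (2.58 CPM, the next 1.81), *Il1rn* in non-amyloid Hom replicate 20 (0.120 CPM from 10 counts, the next 0.0364), *Il18* in amyloid WT replicate 8 (24.1 CPM, the next 19.4) and *Casp1* in non-amyloid WT replicate 15 (5.99 CPM, the next 4.69).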

How the results depend on the processing

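Between WT cohorts the number of the 10 genes called stayed between 6 and 8 when each library was left out, and between Hom cohorts between 4 and 6. It was 0 in both with the microglia marker mean as a covariate, and 3 between Hom cohorts in a fit of only those 20 libraries. Between genotypes with amyloid it was 0 without covariates, 1 by DESeq2, with sex as a covariate (also without library 19) and in 1 fit of 40 libraries, 2 in that fit with sex, and 0 to 1 with a library left out. Between the sexes with amyloid it was 1 by DESeq2 and limma-voom, and 0 to 1 with a library left out. The fit of both cohorts gives 1 sex effect for the 2 together, and 1 of the 10 was called in it. Leaving out a library gave 0 in the other comparisons.

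Signs turned in 16 fits of single genes, none called. With the microglia covariate these were *Il1rn* 0.0083, *Casp1* 0.033 and *Nlrp3* 0.21 between genotypes with amyloid, and *Nlrp3* -0.50 and -0.44 between WT and Hom cohorts. By limma-voom they were *Il6* -0.17 between genotypes with amyloid, *Tnf* -0.12 and *Il6* -0.18 between sexes with amyloid, and *Il1b* 0.017, *Casp1* -0.025 and *Tnf* 0.22 without. With sex and without library 19, *Il6* was -0.032 between genotypes with amyloid. In the fit of both cohorts, *Il1a* was 0.085, *Il1b* 0.14, *Tnf* 0.10 and *Il6* 0.0088 between sexes. Leaving out a library turned 41 further values, none called, with these lowest and highest values. Between genotypes with amyloid they were -0.045 to 0.033 for *Il18* and from -0.027 for *Il6* (without library 19). Without amyloid they were from -0.023 for *Il1a*, -0.021 to 0.18 for *Il1b* and -0.26 to 0.67 for *Il1rn*. They were -0.16 to 0.00059 for *Casp1* in the interaction with cohort and -0.011 to 0.082 for *Il18* between WT cohorts. Between sexes with amyloid they were -0.024 to 0.051 for *Il18*, -0.10 to 0.43 for *Tnf* and from -0.037 for *Il6*. Without amyloid they were -0.13 to 0.080 for *Il1b*, -0.048 to 0.97 for *Il1rn*, -0.024 to 0.12 for *Casp1* and -0.29 to 0.082 for *Tnf*. In the interaction with sex they were -0.20 to 0.15 for *Il1b* and from -0.058 for *Il1r1*. The cause was not tested.

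The *Il1rn* to *Il1b* ratio between genotypes with amyloid turned to 0.0241 with 0.2 CPM added and 0.128 in males, and was -0.0725 without library 19. Without amyloid it turned to -0.00389 with 0.2 CPM added. Between WT cohorts it lost its call with 0.2 CPM added (0.112) and in males (0.765, exact permutation p 0.0794). The *Il1a* to *Il1b* ratio turned to -0.317 between genotypes in non-amyloid females and was 0.149 with amyloid without library 19.

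Over all genes, 16 were called between genotypes with amyloid (11 lower), against 300 by DESeq2 (282 lower), 25 by limma-voom, 9 without a filter, 251 with sex (243 lower), 200 also without library 19, 612 in 1 fit of 40 libraries, 527 in that fit with sex, 2 with the microglia covariate, and 6 to 204 with a library left out. Without amyloid it was 7 against 11 by DESeq2, and for the interaction 0 against 27 by DESeq2, 12 with sex and 6 also without library 19. Between WT cohorts it was 1689 against 15 and between Hom cohorts 1395 against 148 with the microglia covariate. Between sexes it was 51 with amyloid against 251 by DESeq2, 113 by limma-voom and 26 without a filter, and 26 without amyloid against 47 by DESeq2. The fit of both cohorts called 76 genes between sexes for the 2 cohorts together. At a median of 1.5 to 17 counts a library, *Il1rn*, *Tnf* and *Il6* are limited by counting error. No paired analysis was possible because no replicate number is shared between groups.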
